A study of Mus musculus with 6 samples.

Results

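Annexins are proteins that bind the phospholipids of cell membranes in the presence of calcium. Annexin A1 is induced by glucocorticoids, acts through formyl peptide receptors and limits the recruitment of neutrophils in inflammation. Annexin A2 joins the small calcium-binding protein S100A10 in a complex at the cell surface that binds plasminogen, and annexin A5 coats the phosphatidylserine that dying cells expose. In microglia, the resident phagocytes of the central nervous system, these proteins belong to the machinery of inflammation and of the clearance of dying cells.

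The genes described here are *Anxa1*, *Anxa2*, *Anxa3*, *Anxa4*, *Anxa5*, *Anxa6*, *Anxa7* and *Anxa11*. They were read through every probe set of the array that carries 1 of these symbols and no other, which gave 17 of the 45037 probe sets that were compared and 7 of the 18193 genes. The only probe set of *Anxa11* carries several symbols, and *Anxa11* therefore has no value. RNA was measured on 6 Affymetrix whole-genome mouse arrays, 3 of SOD1 G93A mice and 3 of wild type (WT) mice, all males at 90 days of age, each array holding CD11b-sorted microglia pooled from the lumbar spinal cord of several mice. SOD1 G93A mice are a model of amyotrophic lateral sclerosis that carries many copies of mutant human SOD1 as a transgene, and the mutant protein is made in all cell types, so that the effect of mutant SOD1 within microglia cannot be told apart from that of the diseased tissue around them. The values are log2 signals, on which a difference of 1 is a doubling. They are compared here within a probe set only, since probe sets differ in how well they bind.

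Among the annexins, *Anxa4* and *Anxa5* were higher in SOD1 G93A microglia, *Anxa1* and *Anxa2* were lower by 1 of their probe sets each, and *Anxa3*, *Anxa6* and *Anxa7* did not pass the test. Of the 17 probe sets 6 passed at an adjusted p under 0.05 in limma, 4 of them higher in SOD1 G93A and 2 lower. Over all probe sets 4.64% passed in either direction, 2.71% higher and 1.93% lower. The 17 probe sets are not independent, since 3 of the 4 that were higher read the same gene. The 3 SOD1 G93A and the 3 WT arrays did not overlap in 11 annexin probe sets, 8 higher and 3 lower, where 24.7% of all probe sets lay apart, 13.4% higher and 11.3% lower. By the probe set of highest mean signal for each gene, 2 of 7 annexin genes were higher and 0 lower in limma (3 and 1 at an unadjusted p under 0.05), against 3.53% and 2.08% of all genes (5.61% in either direction). At an unadjusted p under 0.05 there were 11 annexin probe sets, and 19.5% of all probe sets reached it.

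**Figure D1:**
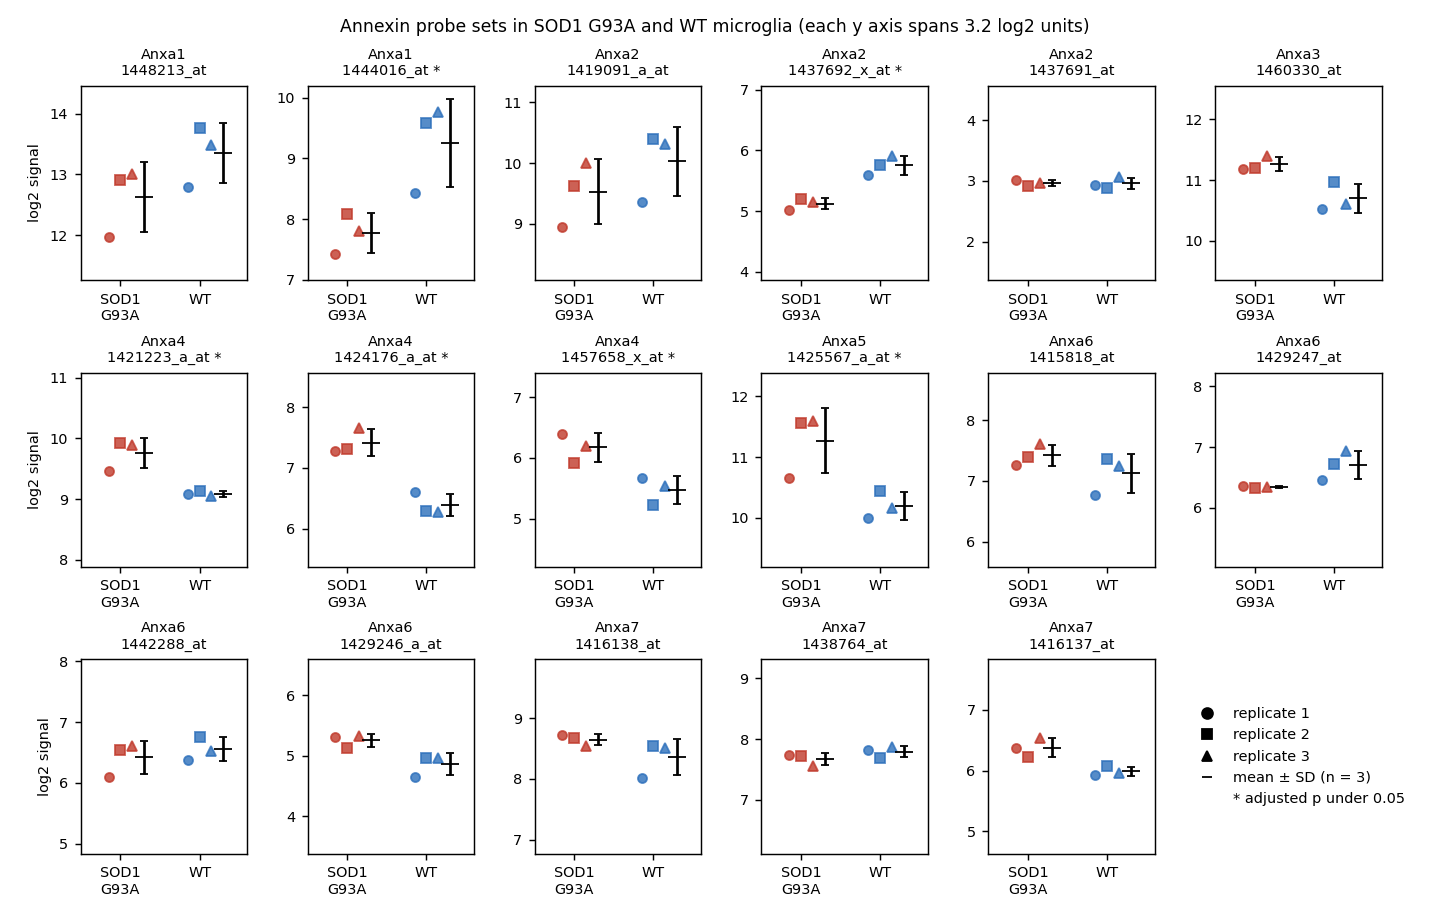
Log2 signal of each of the 17 annexin probe sets (y axis, each panel spanning the same number of log2 units) on the 3 SOD1 G93A arrays (red, left) and the 3 WT arrays (blue, right), with marker shape for the replicate and the mean ± SD beside them. In 8 panels all SOD1 G93A arrays lie above all WT arrays, the 3 *Anxa4* panels and the *Anxa5* panel among them. In 3 panels they lie below, the second *Anxa1* and second *Anxa2* panels among them.

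**Figure D2:**
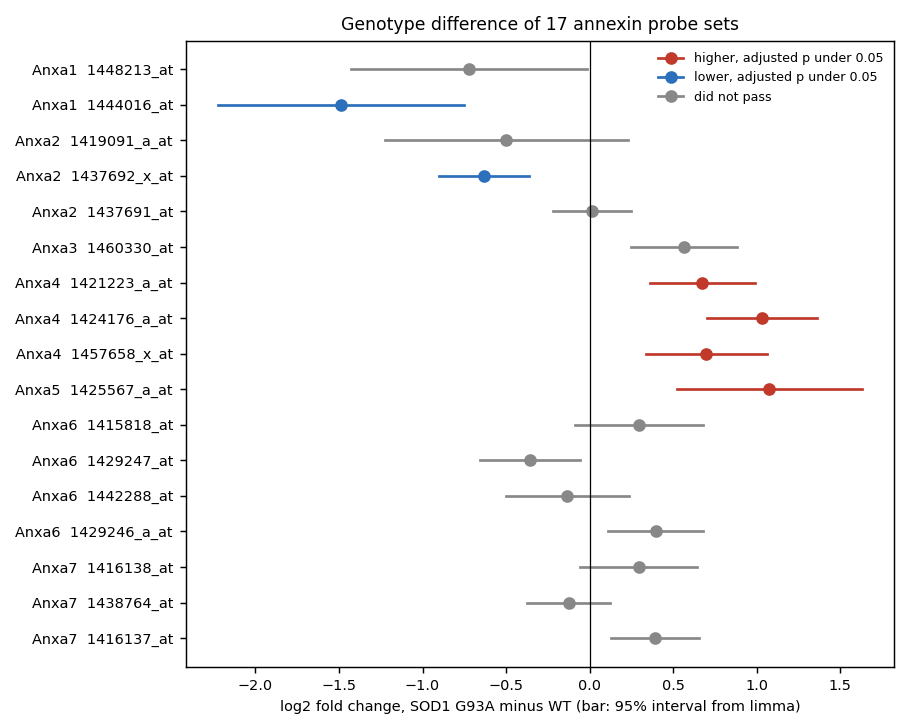
Log2 fold change of SOD1 G93A over WT for each annexin probe set (x axis) with its 95% interval from limma, red where it passed as higher, blue where it passed as lower and grey where it did not pass. The values run from -1.49 for an *Anxa1* probe set to 1.08 for *Anxa5*.

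The sequences upstream of the start of transcription are shown for the 4 genes with a probe set that passed, so that the control regions of the 2 higher and the 2 lower genes can be read side by side. They are the 250 bases before a RefSeq start in build GRCm38.p6, written 5′ to 3′ on the strand of the gene. Capitals mark matches, on either strand, to the TATA motif of core promoters, spelled TATAAA, the GC box (GGGCGG), the E-box (CACGTG), an AP-1 element (TGACTCA) or a PU.1 element (GAGGAAGT), none of which overlapped another in these windows. *Anxa5* lies at chr3:36475888-36476137 on the minus strand, the *Anxa4* start shown at chr6:86793585-86793834 on the minus strand, *Anxa2* at chr9:69453433-69453682 on the plus strand and *Anxa1* at chr19:20390672-20390921 on the minus strand.
Anxa5: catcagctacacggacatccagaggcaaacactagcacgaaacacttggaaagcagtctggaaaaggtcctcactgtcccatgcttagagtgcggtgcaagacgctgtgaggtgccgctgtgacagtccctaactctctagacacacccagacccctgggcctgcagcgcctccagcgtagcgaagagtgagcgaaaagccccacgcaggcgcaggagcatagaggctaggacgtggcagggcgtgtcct
Anxa4: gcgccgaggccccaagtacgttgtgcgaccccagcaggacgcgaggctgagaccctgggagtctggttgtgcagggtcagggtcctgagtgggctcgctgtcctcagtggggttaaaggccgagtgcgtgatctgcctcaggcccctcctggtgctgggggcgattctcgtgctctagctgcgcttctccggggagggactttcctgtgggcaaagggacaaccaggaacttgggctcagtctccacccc
Anxa2: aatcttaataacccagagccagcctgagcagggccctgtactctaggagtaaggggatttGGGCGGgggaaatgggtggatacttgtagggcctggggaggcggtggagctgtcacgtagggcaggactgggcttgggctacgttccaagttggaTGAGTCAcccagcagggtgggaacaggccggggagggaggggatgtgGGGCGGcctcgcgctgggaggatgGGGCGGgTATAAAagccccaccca
Anxa1: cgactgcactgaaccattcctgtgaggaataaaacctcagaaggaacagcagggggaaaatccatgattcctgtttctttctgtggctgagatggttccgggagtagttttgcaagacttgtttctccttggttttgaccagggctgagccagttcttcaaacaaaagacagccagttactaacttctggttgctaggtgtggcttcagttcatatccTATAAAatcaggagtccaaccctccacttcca
The windows of *Anxa5* and *Anxa4* held 0 matches to these motifs, and so did that of a second *Anxa4* start at chr6:86775115-86775364. The *Anxa2* window held 1 TATA box, 3 GC boxes and 1 AP-1 element, and the *Anxa1* window 1 TATA box. A TATA box stood in 12.4% of 32851 promoter windows of the same length, a GC box in 32.7%, an AP-1 element in 4.46%, the E-box in 6.02% and the PU.1 element in 2.44%. These matches describe letters in the windows, and binding to them was not measured. GC content was 58.8% in the *Anxa5* window, 64.8% and 42.0% in those of *Anxa4*, 62.4% in that of *Anxa2* and 46.0% in that of *Anxa1*, beside a median of 52.4% over all windows.

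*Anxa5*, the phosphatidylserine-binding annexin, was higher in SOD1 G93A microglia. Its only probe set (1425567_a_at) read 10.65, 11.57 and 11.59 on the SOD1 G93A arrays (replicates 1 to 3) and 9.995, 10.44 and 10.16 on the WT arrays. All 3 SOD1 G93A arrays lay above all WT arrays, though SOD1 G93A replicate 1 stood close to WT replicate 2 and well below the other two of its genotype. The mean was 11.27 ± 0.54 in SOD1 G93A and 10.20 ± 0.22 in WT (SD, n = 3 each), a 2.11-fold difference or 1.08 on the log2 scale (standard error 0.245, 95% interval 0.52 to 1.63), with a limma adjusted p of 0.0443. The call rested on the full set of arrays, since with an array left out it passed in 1 of 6 fits, that without SOD1 G93A replicate 1, and the adjusted p ran from 0.0036 to 0.154. The log2 difference lay between 0.91 and 1.38 in those fits.

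*Anxa4*, which encodes an annexin found mainly in epithelia and in membranes of the secretory pathway, was higher by each of its 3 probe sets. The brightest (1421223_a_at) read 9.47, 9.93 and 9.89 in SOD1 G93A and 9.08, 9.14 and 9.04 in WT microglia. The second (1424176_a_at) read 7.27, 7.32 and 7.67 in SOD1 G93A and 6.60, 6.29 and 6.28 in WT microglia. The third (1457658_x_at) read 6.39, 5.92 and 6.20 in SOD1 G93A and 5.67, 5.22 and 5.54 in WT microglia. In all 3 probe sets every SOD1 G93A array was above every WT array, and the gap was narrowest in the third. The log2 fold changes were 0.67 (standard error 0.138, adjusted p = 0.0315 from limma), 1.03 (standard error 0.145, adjusted p = 0.00842) and 0.70 (standard error 0.159, adjusted p = 0.0444). The second probe set, a 2.04-fold difference, was the one annexin probe set that passed with each array left out in turn, with an adjusted p from 0.00634 to 0.0465. The first passed in 1 of these 6 fits, without SOD1 G93A replicate 1, and the third in 1, without WT replicate 1. Both were above 0 in every fit, which was fixed by the lack of overlap. The third is of the x_at kind, which Affymetrix marks as open to cross-hybridisation.

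*Anxa1*, the glucocorticoid-induced annexin, had lower means in SOD1 G93A by both probe sets, of which 1 passed. The probe set that passed (1444016_at) read 7.43, 8.08 and 7.80 in SOD1 G93A and 8.43, 9.58 and 9.77 in WT microglia. The groups did not overlap, and WT replicate 1 was more than a log2 unit below the other WT arrays. The mean was 7.77 ± 0.33 in SOD1 G93A and 9.26 ± 0.73 in WT (SD, n = 3 each), a log2 fold change of -1.49 (standard error 0.325, 95% interval -2.23 to -0.75, limma adjusted p = 0.0379), which is 2.81-fold lower. With an array left out it passed in 1 of 6 fits, that without WT replicate 1, and the adjusted p ran from 0.00218 to 0.132.

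The brighter *Anxa1* probe set (1448213_at) read 11.96, 12.91 and 13.01 in SOD1 G93A and 12.80, 13.76 and 13.49 in WT microglia. Here the groups overlapped, and replicate 1 was the lowest array of both genotypes. The log2 fold change was -0.72 (standard error 0.311, 95% interval -1.43 to -0.018) and the adjusted p 0.244. Signals above 13 come near the top of the scale, where the highest signals of the arrays were 14.51 to 14.59, and the size of a difference there can be understated.

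*Anxa2* also passed as lower by 1 probe set. This probe set (1437692_x_at) read 5.02, 5.20 and 5.15 in SOD1 G93A and 5.59, 5.75 and 5.92 in WT microglia. The groups did not overlap, but the signals stood near the lower end of the scale and the probe set is again of the x_at kind. The log2 fold change was -0.63 (standard error 0.120, limma adjusted p = 0.0239). It passed in 2 of 6 fits with an array left out, those without SOD1 G93A replicate 1 and without WT replicate 1, and the adjusted p ran from 0.0191 to 0.0921.

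The bright *Anxa2* probe set (1419091_a_at) read 8.96, 9.63 and 10.01 in SOD1 G93A and 9.36, 10.40 and 10.32 in WT microglia. These groups overlapped, with a log2 fold change of -0.50 (standard error 0.319, 95% interval -1.22 to 0.23) and an adjusted p of 0.451. The third (1437691_at) lay between 2.92 and 3.02 in SOD1 G93A and between 2.88 and 3.06 in WT microglia, the only annexin probe set with a mean below 5, where signal is close to background.

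*Anxa3* did not pass over all probe sets, although its groups lay apart. It read 11.19, 11.20 and 11.39 in SOD1 G93A and 10.51, 10.97 and 10.61 in WT microglia, so that every SOD1 G93A array was higher. The log2 fold change was 0.56 (standard error 0.140, 95% interval 0.25 to 0.88, limma adjusted p = 0.0579). With an array left out it passed in 1 of 6 fits, that without WT replicate 2, and the adjusted p ran from 0.0475 to 0.191.

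*Anxa6*, the largest annexin and one that binds membranes of endosomes and cholesterol-rich domains, gave readings of both signs over 4 probe sets, none of which passed. The brightest (1415818_at) read 7.27, 7.39 and 7.60 in SOD1 G93A and 6.76, 7.35 and 7.25 in WT microglia, with overlap and a log2 fold change of 0.30 (limma adjusted p = 0.39). A second (1429247_at) read 6.36, 6.33 and 6.35 in SOD1 G93A and 6.46, 6.72 and 6.93 in WT microglia, lower on all arrays by 0.36 on average (limma adjusted p = 0.173). Another (1429246_a_at) went the other way, with 5.31, 5.13 and 5.32 in SOD1 G93A and 4.65, 4.96 and 4.96 in WT microglia, a log2 fold change of 0.39 (limma adjusted p = 0.119). The groups of the fourth (1442288_at) overlapped, at -0.13.

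*Anxa7* read 8.73, 8.67 and 8.55 in SOD1 G93A and 8.01, 8.54 and 8.51 in WT microglia by its brightest probe set (1416138_at). The groups did not overlap, but by a margin smaller than the spread within either, and the log2 fold change of 0.29 had a limma adjusted p of 0.346. Of its other probe sets, 1416137_at read 6.38, 6.23 and 6.53 in SOD1 G93A and 5.93, 6.07 and 5.95 in WT microglia, a log2 fold change of 0.39 (limma adjusted p = 0.0968), and 1438764_at had -0.13 with overlap.

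**Figure D3:**
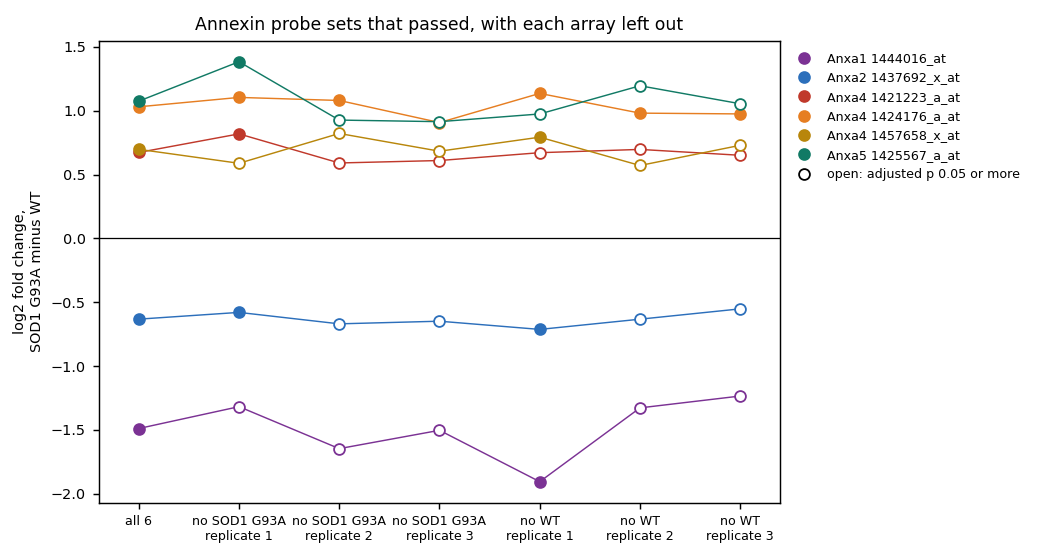
Log2 fold change of SOD1 G93A over WT (y axis) of the 6 annexin probe sets that passed, with all 6 arrays and with each array left out (x axis). Filled points passed at an adjusted p under 0.05 and open points did not, and 1 *Anxa4* probe set is filled throughout. Each probe set keeps its side of 0, which is fixed here because its groups do not overlap.

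The arrays differed in ways that ran alongside the annexins. Signals of the 6 arrays correlated at 0.980 to 0.995 and had medians of 5.93 to 5.97, and limma's array weights were lowest for SOD1 G93A replicate 1 (0.55) and WT replicate 1 (0.62). The *Gapdh* control probes, of which the 3′ minus the 5′ signal reports RNA length, had a difference of 4.12 ± 0.59 in SOD1 G93A and 4.89 ± 0.11 in WT (SD, n = 3 each, exact two-sided permutation p = 0.1, the smallest that 3 arrays against 3 allow). The same measure of beta-actin was 2.67 ± 0.72 in SOD1 G93A and 3.42 ± 0.49 in WT (SD, n = 3 each, exact p = 0.2). With the *Gapdh* measure as a covariate 0 of the 17 annexin probe sets passed in limma, and 129 of all probe sets did. The 6 probe sets that had passed kept their sign. The covariate moved the log2 fold change of *Anxa5* to 0.53, against 1.08 without it, and that of *Anxa6* (1415818_at) to 0.0093, against 0.30. It moved the probe sets of highest signal of *Anxa1* and *Anxa2* the other way, to -1.41 against -0.72 and to -1.24 against -0.50. Its part in the annexin differences was not tested.

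Some markers of blood-borne, border and neural cells were lower beside *Anxa1* and *Anxa2*, and monocytes and neutrophils carry CD11b as microglia do. Over all genes, read in the same way, 2.08% were lower and 3.53% higher. Of the monocyte list 9 of 11 markers were measured, 4 were lower, *Gda* (-1.49) and *Ccr2* (-1.22) by most, 0 were higher, and the log2 of their summed signal was 13.35 to 14.03 in SOD1 G93A and 14.09 to 14.88 in WT microglia. Of the neutrophil list 13 of 15 were measured, 2 were lower, 0 higher, with *Mpo* at -1.45 (not passed) and *Prtn3* at -1.41, and the summed level was 15.84 to 16.40 in SOD1 G93A and 16.16 to 16.90 in WT. Every measured marker of these 2 lists averaged at least 5. Of border macrophage markers 2 of 9 were lower and 1 higher, with a summed level of 11.92 to 12.29 in SOD1 G93A and 12.66 to 12.81 in WT, with *Pf4* at -1.0 and *Cd163* at -0.84 (not passed).

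Some markers of neural cells were lower as well, where 2.08% of all genes were lower and 3.53% higher. Of 10 astrocyte markers 4 were lower and 0 higher, with *Gja1* at -1.77 (not passed) and *Slc1a2* at -1.6, and a summed level of 10.10 to 10.84 in SOD1 G93A and 11.19 to 12.12 in WT. Of these 10 only *Gjb6*, 1 of the lower ones, averaged below 5. Of 9 oligodendrocyte markers 2 were lower, *Mobp* (-2.49) and *Mbp* (-1.16), and 0 higher, with a summed level of 13.26 to 13.41 in SOD1 G93A and 13.97 to 14.52 in WT. Of 10 neuronal markers 3 were lower, *Nefl* (-2.20) and *Map2* (-1.40) by most, and 0 higher, with a summed level of 8.71 to 9.02 in SOD1 G93A and 9.70 to 9.89 in WT. Over all arrays 5 of these 10 averaged below 5, where signal is close to background. *Map2* and *Nefm*, both among the lower ones, were of these. Of 9 lymphocyte markers *Klrd1* (-1.79) was the one that was lower, with a summed level of 8.99 to 9.17 in SOD1 G93A and 9.28 to 9.53 in WT. Of 10 endothelial and mural markers *Flt1* (0.87) was the one that was higher, with a summed level of 9.79 to 10.17 in SOD1 G93A and 9.75 to 9.82 in WT. Of 7 fibroblast markers 0 passed in limma (1 lower at an unadjusted p under 0.05, which 19.5% of all probe sets reached). The 9 measured microglial markers had a summed level of 15.59 to 15.70 in SOD1 G93A and 15.52 to 15.64 in WT, with 1 higher, *Fcrls*, and 1 lower, *Sall1*. Fewer cells of a type and less RNA per cell cannot be told apart in such sorted bulk samples, and the part of other cells in the annexin signals was not tested.

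Of 6 genes of S100 proteins that bind annexins 5 were measured, and in SOD1 G93A microglia 4 were lower and 0 higher, with a median log2 fold change of -1.11, where the median over all genes was 0.022. Over all genes 2.08% were lower. *S100a10*, the partner of annexin A2 in the plasminogen-binding complex, read 8.74, 8.57 and 8.58 in SOD1 G93A and 9.76, 9.91 and 9.83 in WT microglia. The groups lay more than a log2 unit apart, and the log2 fold change was -1.21 (standard error 0.106, limma adjusted p = 0.00134). This probe set is of the x_at kind. A second *S100a10* probe set was lower by 0.64 (limma adjusted p = 0.032), while the third, a dim one, did not pass (-0.24).

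The other S100 members that passed were close in size by their probe sets of highest mean. *S100b*, a ligand of annexin A6 and an astrocyte gene, read 7.15, 7.24 and 6.996 in SOD1 G93A and 8.24, 8.66 and 8.01 in WT microglia, a log2 fold change of -1.17. A dimmer *S100b* probe set had -0.36 and did not pass (limma adjusted p = 0.129). *S100a6*, which also binds annexins, read 9.64, 9.82 and 10.12 in SOD1 G93A and 10.53, 11.23 and 11.14 in WT microglia, a log2 fold change of -1.11. *S100a4*, a ligand of annexin A2, read 8.15, 8.55 and 8.56 in SOD1 G93A and 9.28, 9.57 and 9.66 in WT microglia, a log2 fold change of -1.09. In each of these genes all SOD1 G93A arrays were below all WT arrays. *S100a1*, a ligand of annexin A6, went the other way without passing, with 8.85, 8.80 and 8.88 in SOD1 G93A and 8.54, 8.49 and 8.39 in WT microglia, a log2 fold change of 0.37 (limma adjusted p = 0.077) and no overlap. *S100a11* has no value. With an array left out 3 or 4 of the list were lower.

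Among the receptors and lipid enzymes downstream of annexin A1, 0 of 6 measured genes passed in limma (3 lower at an unadjusted p under 0.05), with a median of -0.25. Over all probe sets 19.5% reached that unadjusted p in either direction. *Fpr2*, the receptor of annexin A1 on myeloid cells, read 9.67, 10.53 and 10.65 in SOD1 G93A and 10.87, 11.73 and 11.70 in WT microglia. The groups did not overlap, but the log2 fold change of -1.15 (standard error 0.297) had a limma adjusted p of 0.0667. *Alox5*, which starts leukotriene synthesis, had -0.50, and *Fpr1* and *Fpr3* have no value.

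Plasminogen activation genes included 2 that were higher and 0 lower of 7 measured, with a median of 0.022. Over all genes 3.53% were higher. *Plau*, which encodes the activator urokinase, read 6.81, 6.76 and 6.61 in SOD1 G93A and 6.15, 5.44 and 5.38 in WT microglia, a log2 fold change of 1.07 (limma adjusted p = 0.0215). *Plgrkt*, a plasminogen receptor of the cell surface, read 9.0, 9.41 and 9.54 in SOD1 G93A and 8.15, 8.37 and 8.39 in WT microglia, a log2 fold change of 1.01 (limma adjusted p = 0.0114). Both genes were higher on all SOD1 G93A arrays, while *Plaur*, the urokinase receptor, overlapped (-0.23). Neither *Plau* nor *Plgrkt* passed without SOD1 G93A replicate 2 or replicate 3, and 1 of them passed without WT replicate 2 or replicate 3.

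Genes of membrane repair and the EF-hand proteins that bind annexins gave 0 that passed in limma of 16 measured (2 at an unadjusted p under 0.05), with a median of 0.0056. Over all probe sets 19.5% reached that unadjusted p. *Ahnak*, a large scaffold that binds the annexin A2 complex, read 7.08, 8.02 and 7.51 in SOD1 G93A and 8.15, 8.91 and 8.74 in WT microglia. Its groups lay apart, with a log2 fold change of -1.06 (standard error 0.259) and a limma adjusted p of 0.0544. The dimmer *Ahnak* probe sets had -0.11, -0.34 and -0.14, and none of them passed. *Pdcd6* and *Sri*, calcium sensors that bind annexins A7 and A11, had 0.20 and -0.051. Of 9 scramblases and flippases, which set how much phosphatidylserine faces outward, 0 passed in limma (1 at an unadjusted p under 0.05), and *Plscr1* had the largest difference (-0.83, with overlap). Of its other probe sets 1 overlapped (-0.98), and the groups of another lay apart at -1.21 (limma adjusted p = 0.092). *Atp8a1* went the other way by a dimmer probe set (0.83, with overlap, limma adjusted p = 0.137), while its brightest had 0.039. Of 4 partners of annexin A6 only *Prkca*, a protein kinase C, passed as lower (-0.49, limma adjusted p = 0.0379). Over all genes 2.08% were lower. *Prkca* no longer passed without SOD1 G93A replicate 2 or 3 or WT replicate 2 or 3. Its other probe sets did not pass, at -0.34 with overlap and -0.29 without.

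**Figure D4:**
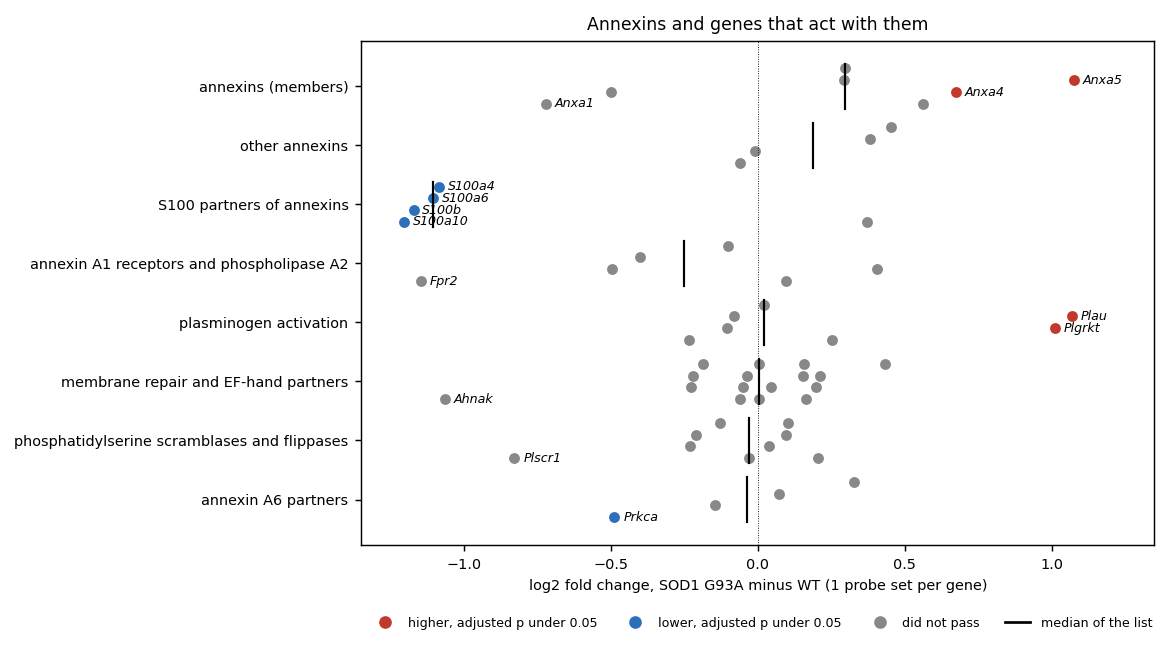
Log2 fold change of SOD1 G93A over WT (x axis) for the annexins and each list of genes that act with them (rows), 1 probe set per gene, red where it passed as higher, blue as lower and grey where it did not pass, with the median of each list as a bar. The 4 blue points of the S100 row lie between -1.21 and -1.09.

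Genes whose profile over the 6 arrays was nearest to that of an annexin, by the mean absolute difference of signals centred on each gene's mean, were looked up among 18192 other genes as a description. Each annexin was read by its probe set of highest mean. For *Anxa1* (1448213_at) and *Anxa2* (1419091_a_at) this was not the probe set that passed as lower. Nearest to *Anxa5* were *St8sia6*, *Sdc3* and *Got1*, at 0.0755, 0.0814 and 0.0862 log2 units, and nearest to *Anxa4* were *Eprs*, *Parp9* and *Znrf2*, at 0.0455 to 0.0487. Nearest to *Anxa1* was *Chil3*, a gene of myeloid cells on the monocyte list, at 0.0515, followed by *Fam107b* at 0.087 and *Ear3* at 0.0879. Nearest to *Anxa2* were *Hsph1*, *Ldhc* and *Stat4*, at 0.0475 to 0.062.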

How the data were processed

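The authors deposited log2 signals for each probe set, normalised by RMA in Partek per the submitters' processing notes, with no version given. The paper's methods name Affymetrix MAS 5.0, whose calls are not used here. Of 45101 probe sets 64 controls were left out. To the other 45037 a model with genotype was fitted in R 4.3.3 with limma 3.58.1 (lmFit, then eBayes), with Benjamini-Hochberg adjustment over all of them. A probe set passed at an adjusted p under 0.05. Other genes were read by the probe set of highest mean among 34945 with 1 symbol. All annexin probe sets are named, with *S100a10*, *S100a11*, *Fpr1*, *Fpr2*, *Pdcd6*, *Sri* and up to 3 further members with the largest difference of each list and up to 2 of each marker list. *Plaur*, *Fpr3*, *S100a1*, *Nefm*, *Gjb6*, *Atp8a1* and *Anxa13* are named outside that rule, after their values were seen. The members and lists were chosen with earlier results of these data known. Replicates are arrays of pooled mice, and their number limits the precision. The fit was tested on simulated data. Alternatives were other tests, filters, scalings, array weights, a covariate, a replicate block and each array left out. Promoter sequences are from RefSeq, matched by symbol for 6 of the 8 genes. Python 3.11.15, pandas 2.3.3 and scipy 1.17.1 were used.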

Additional observations from a re-analysis of the deposited data

How the results depend on the processing

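Every annexin probe set that passed kept its direction in all settings that tested it. The groups of these probe sets do not overlap. Leaving arrays out, filters, array weights, the replicate block or another test could therefore not reverse the direction. Of 4 higher annexin probe sets, 0 passed with the methods' unequal-variance test after Benjamini-Hochberg adjustment, 0 with the *Gapdh* covariate, 2 at the methods' thresholds with limma's unadjusted p, 1 at these thresholds with the methods' own test, and 1 to 3 with an array left out. Of 2 lower ones, 0, 0, 1 and 0 passed under the same settings, 1 with a mean signal of at least 7, and 0 to 2 with an array left out. The filter at 7 removed the *Anxa2* probe set (mean 5.44), so that it was not tested there. It also removed 2 higher *Anxa4* probe sets, 1424176_a_at (mean 6.90) and 1457658_x_at (mean 5.82). The methods' test passed 0 probe sets of all after adjustment. The total of all probe sets that passed, 2089, itself fell to between 479 and 655 without SOD1 G93A replicate 2 or 3 or WT replicate 2 or 3, was 1914 without SOD1 G93A replicate 1 and 2195 without WT replicate 1.

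The replicate numbers come from the array titles, which do not say whether same-numbered arrays were paired. The paper reports litter-matching between the groups. Deviations from the group means of same-numbered arrays correlated at 0.44, 0.24 and 0.029. The first of these was the highest between any SOD1 G93A and WT array, while SOD1 G93A replicate 3 went best with WT replicate 2 (0.40). With the replicate block 5 annexin probe sets were higher and 4 lower, the bright *Anxa1*, *Anxa2* and *Anxa3* probe sets being added, and 4519 of all probe sets passed. Leaving out both arrays numbered 1, a setting chosen after seeing the data, gave 4 higher and 3 lower, while 3796 of all probe sets passed.

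Reversed signs were limited to values near 0. *Anxa2* (1437691_at, 0.013) read -0.018 with array weights, -0.025 to 0.063 with an array left out (below 0 without SOD1 G93A replicate 1 or WT replicate 2) and -0.022 without both arrays numbered 1, *Anxa6* (1442288_at, -0.13) -0.23 to 0.025 with an array left out (above 0 without SOD1 G93A replicate 1), and *Anxa7* (1438764_at) 0.012 with the *Gapdh* covariate. With the adjustment over genes and 1 probe set per gene, 3 annexin genes were higher, *Anxa3* included. The *Anxa3* probe set also passed with array weights (limma adjusted p = 0.0356) and with a mean signal of at least 7 (limma adjusted p = 0.0418). The *Gapdh* 3′ minus 5′ difference, -0.77, lay between -1.02 and -0.44 with an array left out. The cause of these shifts was not tested. Probe sets with a signal below 5 or above 13 measure a change poorly.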

Other observations

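The other annexins on the array stood at low signals and none of their 6 probe sets passed in limma (2 at an unadjusted p under 0.05, which 19.5% of all probe sets reached). *Anxa9* read 6.12, 5.87 and 5.90 in SOD1 G93A and 5.65, 5.44 and 5.64 in WT microglia, a log2 fold change of 0.38 (limma adjusted p = 0.11), with no overlap. *Anxa8* gave 0.45 without overlap by one probe set (limma adjusted p = 0.124) and -0.19 with overlap by another. *Anxa10* lay at 0.11 and -0.061 and *Anxa13* at -0.0083, all at mean signals below 5.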
